A study of Mus musculus with 2 samples.

Results

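The transcripts described here are the 7 genes *Meg3*, *Rian*, *Mirg*, *Rtl1*, *Dlk1*, *B830012L14Rik* and *Gm34081*, taken by symbol from the 32285 genes of the count tables. They lie together at the imprinted Dlk1-Dio3 locus on mouse chromosome 12. They were chosen by their pooled UMI counts in these same libraries, because *Meg3*, *Rian* and *Mirg* stood far apart between them, so the difference between the libraries is given as a description. Single-nucleus RNA sequencing counted RNA molecules by unique molecular identifier (UMI) in single nuclei of the tibialis anterior (TA) muscle of male C57BL/6 mice 6 weeks old. Mice of the M-*Bcl6* KO group were Myf6-Cre+ Bcl6 fl/fl, and those of the M-*Bcl6* WT group were Myf6-Cre+ Bcl6 wt/wt littermates, so both groups carried a Cre driven by the muscle promoter of *Myf6*. Each group was 1 library of nuclei pooled from 2 mice, whose nuclei cannot be told apart.

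Imprinted genes are read from only 1 of the parental chromosomes. At this locus the noncoding RNAs *Meg3*, *Rian* and *Mirg* are read from the maternal chromosome, while the coding genes *Dlk1*, *Rtl1* and *Dio3* are read from the paternal one. *Rian* hosts small nucleolar RNAs, *Mirg* hosts microRNAs, *Dlk1* encodes a ligand-like surface protein of the Notch pathway family, and *Rtl1* encodes a retrotransposon-derived protein with roles in placenta and muscle. *B830012L14Rik* and *Gm34081* are noncoding RNAs without a role stated here. In muscle the locus is known for its activity in satellite cells and young fibres, and for its large microRNA cluster.

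The gene positions are those of GENCODE M21 (GRCm38). *Dlk1* lies at chr12:109452823-109463336 on the forward strand, *Gm34081* at chr12:109493529-109516740 on the reverse strand and *Meg3* at chr12:109541001-109571726 on the forward strand. *Rtl1* follows at chr12:109589193-109600330 on the reverse strand. Further on are *Rian* at chr12:109603940-109661716, *B830012L14Rik* at chr12:109695586-109702587 and *Mirg* at chr12:109729764-109749460, all on the forward strand. RefSeq (GRCm38.p6) placed a start of *Gm34081* 847 bases from the first start of *Meg3*, with the transcripts running away from each other.

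RefSeq promoter windows, 250 bases before to 50 after a start, were held for 5 of the 7 members. They are shown for the first start of *Meg3*, the transcript on which the results turn (chr12:109540746-109541045, forward strand), for *Rian*, the next in UMIs (chr12:109603695-109603994, forward strand), and for *Dlk1*, which was almost unread in muscle nuclei (chr12:109452573-109452872, forward strand). Capitals mark matches, on both strands, to the CREB site TGACGTCA, the TATA box TATAAA, the BCL6 and STAT pattern TTCNNNGAA, or the MEF2 pattern, of which there was none.
Meg3 promoter: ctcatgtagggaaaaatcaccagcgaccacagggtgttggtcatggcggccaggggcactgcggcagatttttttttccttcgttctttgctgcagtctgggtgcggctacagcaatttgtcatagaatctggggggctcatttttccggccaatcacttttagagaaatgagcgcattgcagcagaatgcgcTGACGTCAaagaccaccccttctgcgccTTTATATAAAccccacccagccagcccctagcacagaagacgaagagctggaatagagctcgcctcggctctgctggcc
Rian promoter: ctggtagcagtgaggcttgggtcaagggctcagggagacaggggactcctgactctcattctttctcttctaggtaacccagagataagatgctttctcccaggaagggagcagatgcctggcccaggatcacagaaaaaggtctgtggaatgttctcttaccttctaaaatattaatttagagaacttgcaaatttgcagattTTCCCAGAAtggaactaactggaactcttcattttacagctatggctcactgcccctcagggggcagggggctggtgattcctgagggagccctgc
Dlk1 promoter: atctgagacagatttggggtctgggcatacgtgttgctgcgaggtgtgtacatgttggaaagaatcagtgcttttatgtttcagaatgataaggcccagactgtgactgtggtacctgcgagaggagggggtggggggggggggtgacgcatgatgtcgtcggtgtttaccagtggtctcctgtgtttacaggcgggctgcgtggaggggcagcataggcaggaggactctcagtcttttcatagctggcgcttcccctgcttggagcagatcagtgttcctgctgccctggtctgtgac

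The *Meg3* window held the CREB site, starting 57 bases before the start, and 2 overlapping matches to the TATA box. Over 32851 promoter windows, 1.79% held the CREB site and 13.6% the TATA box. The BCL6 and STAT pattern was matched once in the *Rian* window and in 8.30% of all windows, while the MEF2 pattern was found in 3.69% of all windows. The 5-base CREB core TGACG, whose matches include those of the full site, was in the *Meg3* and *Dlk1* windows shown and in 20.8% of all windows. The E-box CANNTG was in 72.3% of all windows, and neither of these last 2 motifs is capitalised. The matches are a description of letters and were not tied to any binding.

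The stretch of *Rtl1* holds 6 microRNA hairpins of the opposite strand, the strand from which *Meg3* and *Rian* are read. A single mature microRNA of each is shown because UMIs of *Rtl1* and of RNA from the opposite strand share these positions. Whether counting used the strand is not given in the sources used here, so the *Rtl1* values are uncertain. Capitals mark the seed, bases 2 to 8, and no 2 of these seeds are alike. MicroRNAs were not measured in these libraries.
miR-431-5p: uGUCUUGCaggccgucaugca
miR-433-3p: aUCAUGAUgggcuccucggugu
miR-127-3p: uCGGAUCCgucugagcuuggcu
miR-434-3p: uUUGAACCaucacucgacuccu
miR-432: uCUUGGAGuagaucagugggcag
miR-136-5p: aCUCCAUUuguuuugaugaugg

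The tables held 11974138 UMIs in 3798 barcodes for WT and 12026013 UMIs in 4096 barcodes for KO, with 6 barcode sequences in common. After filters, 2408 and 3088 nuclei were myonuclei, with median depths of 3126.5 and 2707 UMIs. The 10 myonuclear markers took at least 53195 CPM (UMIs per 1000000 UMIs) in each myonuclear cluster against 13720 CPM in the highest other cluster. *Bcl6*, the targeted gene, went against the labels, since myonuclei held 167 CPM where the label was WT and 502 CPM where it was KO. The loxP sites flank the exons of its zinc fingers, and the counts do not say which exon a UMI came from. The libraries are therefore named by their labels throughout. With 1 library per genotype no test between genotypes was possible, and every range in parentheses is an exact 95% interval that covers counting error only.

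*Meg3* was present at 2 separate levels in single myonuclei of the library labelled KO. Nuclei either held many *Meg3* UMIs, with a median of 122 and a range from 3 to 761, or few, with a median of 1 and a range from 0 to 32. Only 150 of 3088 myonuclei, or 4.86%, lay between 2500 and 10000 CPM of *Meg3*. A limit of 5000 CPM, set after this distribution was seen, divided the myonuclei into 1447 that are termed *Meg3*-high and 1641 that are termed *Meg3*-low. The *Meg3*-high nuclei were 46.9% of the myonuclei (45.1 to 48.6) and held 98.5% of their *Meg3* UMIs. Which of the 2 mice each nucleus came from cannot be told apart.

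Nuclei above the same limit were found in the library labelled WT, in small number. There, 26 of 2408 myonuclei were *Meg3*-high, or 1.08% (0.706 to 1.58), and they held 89.1% of the *Meg3* UMIs. Their *Meg3* count ranged from 4 to 273 with a median of 118, close to the median in the *Meg3*-high nuclei of the other library. As CPM of the nucleus the medians were further apart, at 31263 labelled WT and 43968 labelled KO. Of the 26, 6 lay between 5000 and 10000 CPM. Both classes were cut at the same limit of *Meg3*, so the closeness of their levels is in part set by that limit. Assigning classes by each nucleus's own marker UMIs raised this share to 2.45%. No *Meg3* UMI was found in 2194 of the 2408 myonuclei.

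**Figure D1:**
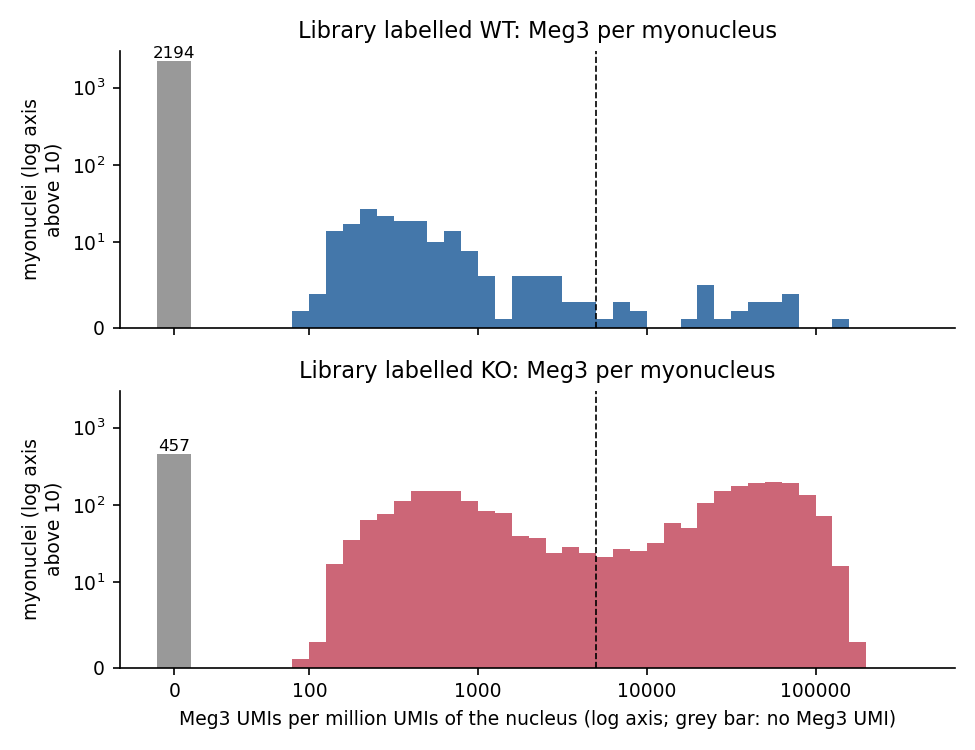
*Meg3* in each myonucleus of the library labelled WT (top) and KO (bottom), as CPM of the nucleus on a log axis, with the number of nuclei on an axis that is linear up to 10 and logarithmic above. The grey bars are the 2194 and 457 nuclei without a *Meg3* UMI, the dashed lines are at 5000 CPM, and the lower panel shows 2 humps with 150 nuclei between 2500 and 10000 CPM.

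Pooled over nuclei, *Meg3* in the *Meg3*-high class was 43680 CPM (43488 to 43872) in the library labelled KO and 36820 CPM (35523 to 38152) in the library labelled WT. The intervals do not overlap, but the levels were much closer than the shares of nuclei. Part of that closeness is set by the common limit of 5000 CPM. The *Meg3*-high nuclei of the libraries also differed in their mix of fibre types. Among those led by the myosin gene *Myh4*, *Meg3* was 61161 CPM labelled KO and 44867 CPM labelled WT. In the *Meg3*-low class, *Meg3* was 585 CPM (564 to 606) and 42.7 CPM (38.5 to 47.3). All 7 transcripts together took a median of 5.35% of the UMIs of a *Meg3*-high nucleus in the library labelled KO, and 26.2% in the most extreme nucleus. For the 26 nuclei of the library labelled WT, the median was 4.29% and the highest 15.9%.

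Depth did not order the nuclei. Of the myonuclei labelled KO with under 2000 UMIs 45.5% were *Meg3*-high, against 48.2% from 2000 to below 4000 UMIs and 46.1% from 4000 UMIs up. Median depth was 2697 UMIs in *Meg3*-high and 2719 UMIs in *Meg3*-low nuclei. The 10 myonuclear markers, which are contractile and other fibre genes, were at 111306 and 115580 CPM. The shares with other limits were 49.4% from 2500 CPM, 44.5% from 10000 CPM and 47.5% from 10 UMIs of *Meg3*.

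Over all myonuclei, the 6 members with at least 20 UMIs stood between 4.63 and 6.58 log2 units higher in the library labelled KO. Of 12453 genes with at least 20 UMIs in both libraries together, 5.48% were 2-fold or more higher and 5.12% were 2-fold or more lower, and the median log2 ratio of all of them was -0.13. All 6 members that reached that count were higher, with a median of 5.77, and since this contrast chose them nothing is read from the count. *Meg3* went from 387 to 20937 CPM and *Rian* from 99.9 to 5528 CPM, log2 ratios of 5.76 (5.71 to 5.81) and 5.79 (5.69 to 5.89). *Mirg* had 151 and 7707 UMIs, and *B830012L14Rik* had 167 and 15716 UMIs, a log2 ratio of 6.43 (6.21 to 6.66). *Rtl1* had 9 and 936 UMIs and *Gm34081* had 14 and 378 UMIs. *Dlk1* had 1 and 17 UMIs and was the member under the limit of 20, with a log2 ratio of 3.96 (1.29 to 9.35).

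The genes on either side of the locus did not share this rise. Of 15 names listed as chromosome 12 neighbours, among them *Wars* and its other name *Wars1*, 14 were in the tables. *Wdr20rt*, at chr12:65225517-65233359, lies far from the locus and had 0 and 1 UMI. At least 20 UMIs were reached by 9 of them, with a median log2 ratio of -0.23. The transcription factor gene *Yy1* was at -0.13 (-0.27 to 0.01), the phosphatase subunit *Ppp2r5c* at -0.29 and the dynein heavy chain *Dync1h1* at -0.37. *Evl*, an actin regulator, was 2-fold higher on 13 and 31 UMIs (log2 1.13, 0.15 to 2.19). *Begain*, the nearest neighbour before *Dlk1*, and *Dio3os* had no UMI, and *Dio3*, at the far end of the locus, had 0 and 2.

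**Figure D2:**
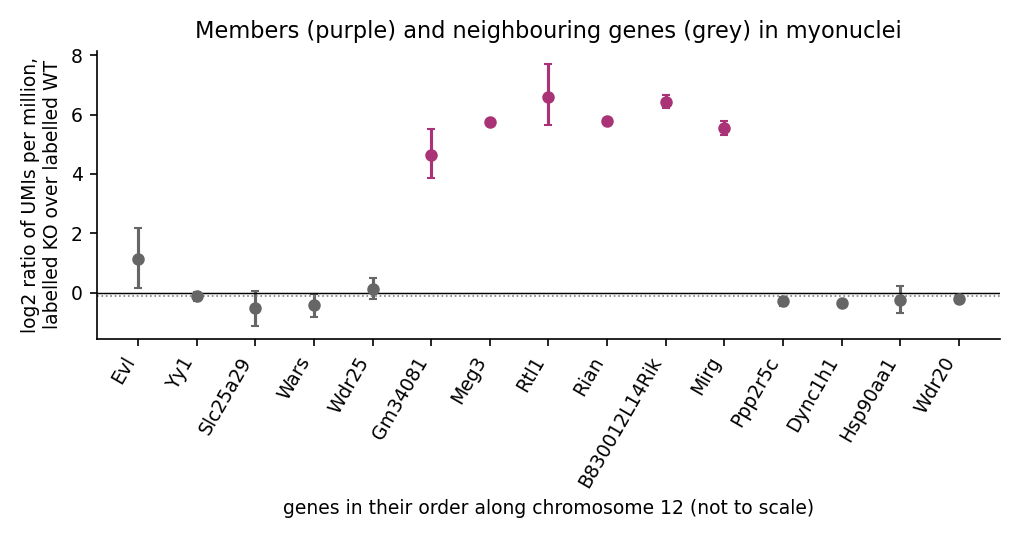
Log2 ratio of CPM in myonuclei, the library labelled KO over the library labelled WT, for members (purple) and neighbours (grey) with at least 20 UMIs, in their order along chromosome 12 and not to scale. Bars are exact 95% counting intervals, the dotted line is the median of all genes at -0.13, and the 6 members lie between 4.63 and 6.58 with neighbours between -0.53 and 1.13.

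Among 18 genes that act on the locus, keep imprints or process microRNAs, 17 had at least 20 UMIs and none was 2-fold higher or lower. Over all genes with that many UMIs the shares were 5.48% and 5.12%, so nothing is read from this count. The DNA demethylases *Tet1* and *Tet2* were at log2 ratios of 0.86 (0.33 to 1.40) and 0.68 (0.61 to 0.76). The lowest values were those of *Ezh2*, the histone methyltransferase of Polycomb, at -0.75 (-0.99 to -0.51) and of *Mef2c*, a muscle transcription factor, at -0.63 (-0.66 to -0.60). The maintenance methyltransferase *Dnmt1* was read by 28 and 27 UMIs. *Zfp57*, a zinc finger protein that protects imprints, had 0 and 1 UMI.

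The transcripts were found in the same nuclei. Each nucleus was thinned to 1000 UMIs for this comparison, which left out 75 and 27 myonuclei that held fewer. In the library labelled KO, *Meg3* and *Rian* were both found in 41.1% of 3013 thinned myonuclei (39.4 to 42.9), against 53.5% without thinning. Of nuclei with *Rian*, 94.2% also held *Meg3* (92.8 to 95.4), while 48.6% of nuclei without *Rian* did (46.2 to 51.1). *Rian* was found in 1239 of 2065 nuclei with *Meg3* (57.8 to 62.1%) and in 8.02% of those without (6.37 to 9.93).

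The rarer transcripts nested within the more frequent ones. Of the 715 thinned nuclei with *Mirg*, 98.9% held *Meg3* and 95.9% held *Rian*. In nuclei without *Mirg* these shares were 59.1% and 27.4%. *B830012L14Rik* was in 78.7% of nuclei with *Mirg* (75.6 to 81.7) and in 5.40% of those without (4.51 to 6.40). *Gm34081* was found in 107 thinned nuclei, all of which held both *Meg3* and *Rian*. Of nuclei without *Gm34081*, 67.4% held *Meg3* and 41.6% held *Rian*. *Rtl1* was found in 217, of which 216 held *Meg3* and 213 held *Rian*, against 66.1% and 39.4% of nuclei without *Rtl1*. All of *Meg3*, *Rian* and *Mirg* were together in 685 nuclei, or 22.7%, and none of them was in 865.

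In the library labelled WT the transcripts also shared nuclei, on far smaller numbers. Of its 2381 thinned myonuclei, 103 held *Meg3* and 38 held *Rian*, and 29 of the 38 also held *Meg3*, or 76.3% (59.8 to 88.6), below the 94.2% of the other library. All of *Meg3*, *Rian* and *Mirg* were in 16 nuclei, or 0.672%. *Rtl1* was in 4 and *Gm34081* in 3, and each of these nuclei held *Meg3*. Without thinning, each of the 9 nuclei with *Rtl1* and the 5 with *Gm34081* held *Meg3* and *Rian*.

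Nearly all UMIs of the other noncoding transcripts and of *Rtl1* lay in *Meg3*-high nuclei. In the library labelled KO these nuclei held 52715 of 53253 UMIs of *Rian*, 7663 of 7707 of *Mirg* and 15614 of 15716 of *B830012L14Rik*. The WT numbers were 819 of 882, 140 of 151 and 149 of 167. All 378 UMIs of *Gm34081* in the library labelled KO and all 14 in the library labelled WT fell in *Meg3*-high nuclei. The 0 UMIs in *Meg3*-low nuclei allow up to 0.590 and 0.343 CPM, against 83.1 CPM (74.9 to 91.9) and 169 CPM (92.6 to 284) in *Meg3*-high ones. Of the *Rtl1* UMIs, 930 of 936 and 9 of 9 fell in *Meg3*-high nuclei. *Dlk1* was sparse in both classes, with 14 UMIs in the *Meg3*-high and 3 in the *Meg3*-low nuclei labelled KO.

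Across the 1447 *Meg3*-high nuclei labelled KO the levels of the transcripts rose and fell together. Spearman's rho of CPM was 0.76 between *Meg3* and *Rian*, 0.84 between *Rian* and *Mirg*, and 0.86 between *Rian* and *B830012L14Rik*. Within nuclei whose main myosin gene was *Myh4*, these were 0.67, 0.75 and 0.84 over 434 nuclei. They were 0.66, 0.70 and 0.70 over 538 *Myh1* nuclei, and 0.61, 0.48 and 0.42 over 121 *Myh2* nuclei. Between *Meg3* and *B830012L14Rik* rho was 0.58, 0.42 and 0.18 in the 3 classes. The points are nuclei of 1 library that share a fibre mixture and a depth range, and *Meg3* itself went against total UMIs with a rho of -0.33. The values describe these nuclei and carry no test.

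The share of *Meg3*-high nuclei differed with the main myosin gene. Fast fibres of mouse TA are told apart by their myosin heavy chain genes, *Myh4* in type IIB, *Myh1* in type IIX and *Myh2* in type IIA, and each myonucleus was assigned to the gene with most UMIs. In the library labelled KO, 434 of 612 *Myh4* nuclei were *Meg3*-high, or 70.9% (67.1 to 74.5). The share was 45.7% of 1176 *Myh1* nuclei (42.9 to 48.6) and 25.1% of 482 *Myh2* nuclei (21.3 to 29.2). Of the 19 nuclei with the slow gene *Myh7* on top, 1 was *Meg3*-high, and of 799 nuclei with no leading gene 44.2% were. Clusters did not follow the same order throughout. The cluster with *Myh2* and *Myh7* among its leading genes was at 57.4% of 629 nuclei (53.4 to 61.3), above the *Myh2* nuclei.

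The library labelled WT had most of its *Meg3*-high nuclei in the *Myh4* class. Of its 701 *Myh4* nuclei 16 were *Meg3*-high, or 2.28% (1.31 to 3.68), against 1 of 1155 *Myh1* nuclei, or 0.0866% (0.00219 to 0.481). None of 237 *Myh2* nuclei was, which allows a share of up to 1.27%, and 9 of 313 nuclei with no leading gene were, or 2.88% (1.32 to 5.39). With the main gene required to hold 80% of at least 5 myosin UMIs, the KO shares were 76.7, 48.5 and 22.2%, and those of the library labelled WT were 3.29% of 425 *Myh4* nuclei and 0 of 953 *Myh1* nuclei, which allows up to 0.315%.

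**Figure D3:**
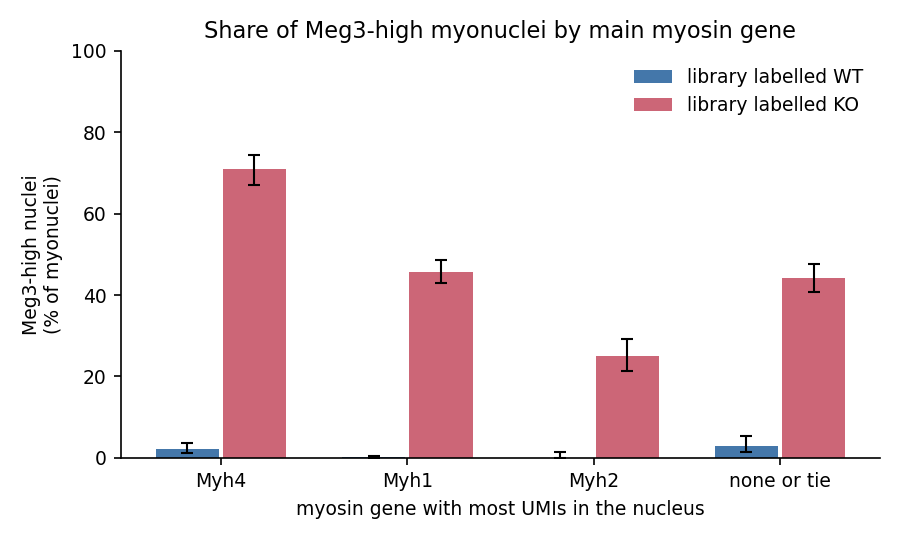
Share of *Meg3*-high myonuclei, in percent, by the myosin gene with most UMIs in the nucleus, for the library labelled WT (blue) and KO (red), with exact 95% binomial intervals. The red bars fall from 70.9% for *Myh4* to 45.7% for *Myh1* and 25.1% for *Myh2*, and the blue bars are at most 2.88%.

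The level within *Meg3*-high nuclei had the same order. Pooled *Meg3* was 61161 CPM (60723 to 61602) in *Myh4*, 36111 CPM (35839 to 36385) in *Myh1* and 26462 CPM (25998 to 26931) in *Myh2* nuclei labelled KO. The nucleus in the middle of each class held 64811, 34560 and 26476 CPM. The 16 *Myh4* nuclei labelled WT stood at 44867 CPM (43137 to 46649), below the *Myh4* and above the *Myh1* nuclei of the other library. In *Meg3*-low nuclei labelled KO the 3 classes were close to each other, at 690, 539 and 554 CPM.

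Over high and low nuclei together, *Meg3* in the library labelled KO was 43287 CPM for *Myh4*, 17013 CPM for *Myh1* and 7818 CPM for *Myh2*. The corresponding levels labelled WT were 1051 CPM (1011 to 1092), 38.8 CPM (33.2 to 45.0) and 31.6 CPM (21.0 to 45.6). The last 2 of these overlap. The *Myh1* value rests on few nuclei, since 1 nucleus gave 74 of its 174 UMIs and the value was 19.2 CPM with the stricter myosin rule and 57.9 CPM with classes from marker UMIs.

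Myonuclei at the ends and the synapse of the fibre were few. The 31 MTJ-like myonuclei labelled KO, from the junction with the tendon, held 7309 CPM of *Meg3* with 12 *Meg3*-high nuclei, and the 25 labelled WT held 658 CPM with 1, which gave 62 of their 72 *Meg3* UMIs. The 8 NMJ-like myonuclei, from under the nerve ending, held 1700 CPM (1197 to 2343) with 1 *Meg3*-high nucleus in the library labelled KO. The 15 labelled WT held 1 *Meg3* UMI.

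The downstream transcripts varied more between fibre classes than *Meg3* did. Ratios are given as UMIs per 100 *Meg3* UMIs, and as UMIs were not divided by length they are read between groups of nuclei, not between genes. *Rian* was at 37.8 per 100 *Meg3* UMIs in *Meg3*-high *Myh4* nuclei labelled KO (37.2 to 38.3), at 17.8 in *Myh1* (17.4 to 18.1) and at 8.44 in *Myh2* nuclei (7.92 to 8.99). *Mirg* fell from 5.48 (5.31 to 5.65) to 2.64 (2.52 to 2.77) and 1.15 (0.964 to 1.35). *B830012L14Rik* fell from 11.5 (11.2 to 11.7) to 5.47 (5.29 to 5.66) and 1.35 (1.15 to 1.57). *Rtl1* fell from 0.704 to 0.312 and 0.153, on 525, 210 and 19 UMIs, and none of these intervals overlapped within a transcript.

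The 16 *Meg3*-high *Myh4* nuclei labelled WT lay between the *Myh4* and *Myh1* nuclei labelled KO for *Rian*, at 26.3 (24.1 to 28.6). *Mirg*, at 4.97 (4.12 to 5.95), overlapped the *Myh4* value of the library labelled KO. *B830012L14Rik*, at 4.93 (4.09 to 5.90), was below that value and overlapped the *Myh1* one. *Gm34081* was at 0.552 on 14 UMIs, against 0.338 on 252 UMIs, with overlapping intervals.

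**Figure D4:**
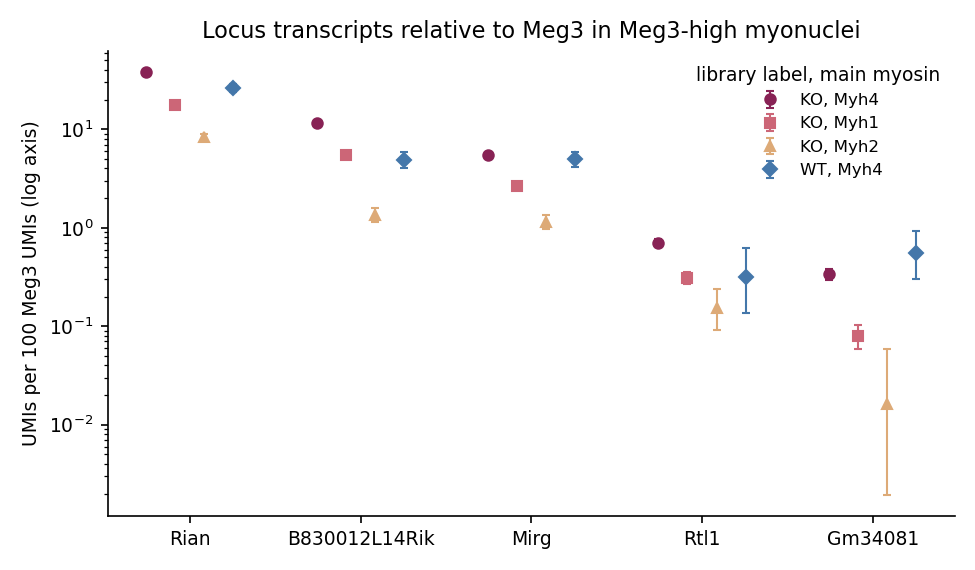
UMIs of 5 transcripts per 100 *Meg3* UMIs (log axis) in *Meg3*-high myonuclei, for the 3 main myosin genes in the library labelled KO and for *Myh4* in the library labelled WT, with exact 95% counting intervals. For *Rian*, *B830012L14Rik*, *Mirg* and *Rtl1* the values labelled KO fall from *Myh4* to *Myh1* to *Myh2*, for *Rian* from 37.8 to 17.8 to 8.44.

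This order held for *Rian* at matched *Meg3* from 20000 CPM up, and at matched depth. Between 20000 and 50000 CPM of *Meg3*, *Rian* was at 36.9 per 100 in *Myh4* (35.7 to 38.0), 15.2 in *Myh1* (14.8 to 15.6) and 7.39 in *Myh2* nuclei (6.75 to 8.08). From 50000 CPM up it was at 38.3, 23.7 and 11.5, the last on 18 nuclei. Between 5000 and 20000 CPM the values were 11.0, 7.94 (7.14 to 8.81) and 8.01 (6.92 to 9.24), and the last 2 overlapped. From 2000 to below 4000 total UMIs the values were 36.5, 12.6 and 9.67, and in nuclei under 2000 UMIs they were 31.9, 17.5 and 7.41.

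At equal depth, detection set *Myh4* nuclei apart from the others. In thinned *Meg3*-high nuclei labelled KO, *Rian* was found in 94.3% of *Myh4*, 72.0% of *Myh1* and 69.2% of *Myh2* nuclei, with intervals of 68.0 to 75.8 and 60.1 to 77.3 for the last 2. *Mirg* was found in 79.0%, 31.0% and 24.2%, and *B830012L14Rik* in 77.6%, 25.6% and 15.0%. *Rtl1* was found in 28.1%, 7.65% and 5.83%. *Gm34081* was found in 69 of 424 *Myh4* nuclei, 13 of 536 *Myh1* nuclei and 0 of 120 *Myh2* nuclei, which allows up to 2.5% of the last. For each of these 5 transcripts the *Myh1* and *Myh2* intervals overlapped.

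The pooled *Meg3*-low level was close to that of endothelial-like and macrophage-like nuclei. *Meg3* in *Meg3*-low myonuclei labelled KO, 585 CPM, fell within the intervals of endothelial-like nuclei at 513 CPM (431 to 605) and macrophage-like nuclei at 495 CPM (373 to 645). In the library labelled WT the *Meg3*-low myonuclei stood at 42.7 CPM, within the intervals of 56.0 CPM (35.1 to 84.8) and 61.3 CPM (30.6 to 110). The classes within these pools spread more widely. *Meg3*-low *Myh4* nuclei labelled KO, at 690 CPM (620 to 766), lay above both values of that library. *Meg3*-low nuclei labelled WT were at 165 CPM (140 to 193) with no leading myosin gene and at 22.3 CPM (18.1 to 27.1) with *Myh1*, above and below both. Thinned shares of nuclei with *Meg3* were 33.0% of endothelial-like and 38.1% of macrophage-like nuclei labelled KO, and 3.27% and 6.06% of those labelled WT. In *Meg3*-low myonuclei labelled KO the thinned share was 40.5% (38.1 to 42.9), which overlapped both (24.6 to 42.4 and 23.6 to 54.4). The part of free RNA in the *Meg3*-low level was not tested, and no difference from these cell types is read from the pooled value. The endothelial-like and macrophage-like values rose to 1328 and 2035 CPM in the library labelled KO without doublet removal.

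Pooled over all myonuclei labelled KO, the ratios in *Meg3*-low nuclei were below those in *Meg3*-high ones. *Rian* was at 18.1 per 100 *Meg3* UMIs (16.5 to 19.8) against 26.5 (26.3 to 26.8) and 26.1 over all nuclei kept in that library, and *Mirg* at 1.48 (1.07 to 1.99) against 3.86 (3.77 to 3.95). *B830012L14Rik* was at 3.43 (2.79 to 4.18) against 7.86 (7.73 to 7.99). This order did not hold within each fibre class. *Meg3*-low nuclei held 62 *Rian* on 353 *Meg3* UMIs for *Myh4*, 209 on 1164 for *Myh1* and 111 on 666 for *Myh2*. Against the *Meg3*-high ratios of 37.8, 17.8 and 8.44 per 100, the *Meg3*-low ratio was lower for *Myh4*, close for *Myh1* and higher for *Myh2*. In endothelial-like nuclei *Rian* was at 28.6 (19.6 to 40.9), and in macrophage-like nuclei at 23.6 (11.8 to 43.8).

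*Meg3* was read in the stromal and stem cell classes of both libraries. FAP-like nuclei, the fibro-adipogenic progenitors, held 3047 CPM (2945 to 3151) in the library labelled WT and 4359 CPM (4208 to 4514) in the library labelled KO. MuSC-like nuclei, the muscle stem cells, held 3613 and 5408 CPM, and tenocyte-like nuclei held 3486 and 4874 CPM. Pericyte or smooth muscle-like nuclei held 1236 CPM (1125 to 1355) and 2965 CPM (2768 to 3172). A single FAP-like nucleus held a median of 4 *Meg3* UMIs, with a range from 0 to 49, in the library labelled WT, and a median of 7, from 0 to 90, in the other. Within the library labelled WT, MuSC-like (3392 to 3844) and tenocyte-like nuclei (3208 to 3781) were not apart.

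Each of these classes was higher in the library labelled KO, by less than the myonuclei. The log2 ratio was 0.52 (0.45 to 0.59) in FAP-like, 0.58 (0.46 to 0.71) in MuSC-like, 0.48 (0.32 to 0.64) in tenocyte-like and 1.26 (1.10 to 1.43) in pericyte or smooth muscle-like nuclei. It was 3.20 (2.54 to 3.92) in endothelial-like and 3.02 (2.07 to 4.10) in macrophage-like nuclei. The 10 myonuclear markers were at 4354 CPM in FAP-like nuclei labelled KO and at 2351 CPM in those labelled WT. The part of free RNA in these differences was not tested. With classes from marker UMIs the tenocyte-like order turned, to 3990 CPM labelled WT and 3733 CPM labelled KO. Without doublet removal, MuSC-like and pericyte or smooth muscle-like nuclei labelled KO stood at 9227 and 4827 CPM.

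**Figure D5:**
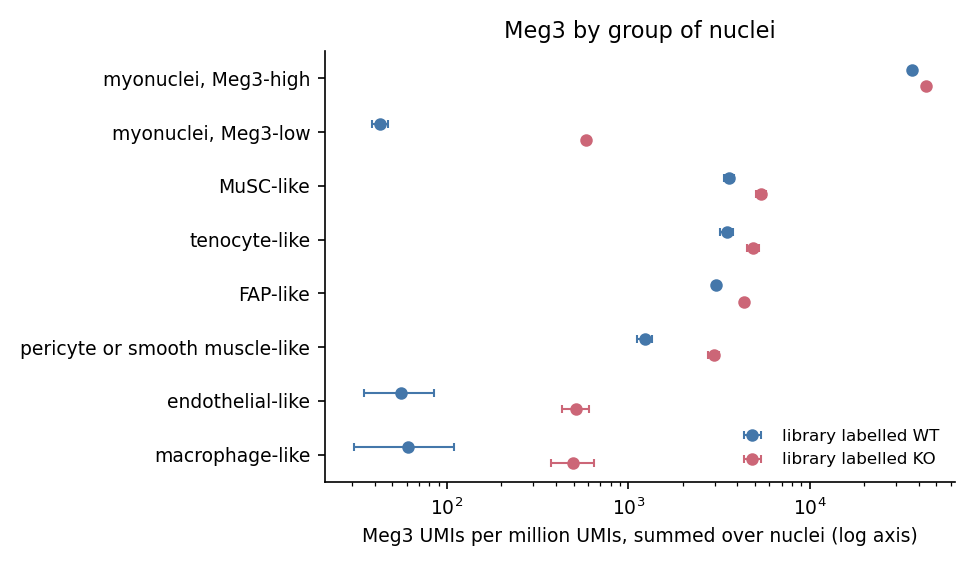
*Meg3* in CPM (log axis), summed over the nuclei of each class, for the library labelled WT (blue) and KO (red), with exact 95% counting intervals. *Meg3*-high myonuclei of the libraries lie at 36820 and 43680 CPM, while *Meg3*-low myonuclei lie at 42.7 and 585 CPM beside the endothelial-like and macrophage-like nuclei.

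In FAP-like and MuSC-like nuclei *Rian* stood closer between the libraries than *Meg3* did. *Rian* had log2 ratios of 0.24 (0.06 to 0.43) and 0.03 (-0.25 to 0.31), and *Mirg* of 0.12 (-0.35 to 0.59) and 0.02 (-0.82 to 0.83). The *Mirg* intervals included the *Meg3* values of 0.52 and 0.58. *B830012L14Rik* stood at 0.34 (0.05 to 0.62) and 0.82 (0.36 to 1.27). In pericyte or smooth muscle-like nuclei *Rian* was at 2.06 (1.60 to 2.54), above the 1.26 of *Meg3*. *Mirg* was at 2.76 (1.19 to 4.76) and *B830012L14Rik* at 1.87 (1.10 to 2.71), and both intervals included 1.26. In tenocyte-like nuclei *B830012L14Rik* was at -1.13 (-2.52 to 0.11) on 8 and 20 UMIs. *Gm34081* had no UMI in any of these 6 classes, and *Rtl1* had at most 5 in any of them.

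*Rian* relative to *Meg3* also differed among the non-muscle classes of the library labelled WT. It was 25.3 per 100 *Meg3* UMIs in MuSC-like (22.0 to 29.1), 16.8 in FAP-like (15.3 to 18.4), 11.2 in pericyte or smooth muscle-like (8.24 to 15.0) and 8.95 in tenocyte-like nuclei (6.61 to 11.9). The last 2 overlapped. *B830012L14Rik* was at 7.61 in MuSC-like and 3.44 in tenocyte-like nuclei (5.94 to 9.61 and 2.09 to 5.37).

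*Socs2*, *Retreg1* and *Bcl6*, picked by name from the genes that differed between the libraries, were also read in the *Meg3*-high nuclei labelled WT. *Socs2*, an inhibitor of cytokine signalling, was at 71.7 CPM in myonuclei labelled WT and 383 CPM in those labelled KO. In the 26 nuclei it was at 48.4 CPM (13.2 to 124), on 4 UMIs. *Retreg1*, a receptor for turnover of the endoplasmic reticulum, was at 1322 and 2635 CPM, and at 774 CPM (596 to 989) in the 26 nuclei. For *Myh4* nuclei labelled WT it was at 999 CPM in all and 761 CPM (551 to 1026) in the 16 *Meg3*-high ones. *Bcl6* was at 242 CPM (148 to 374) in them, on 20 UMIs, against 166 CPM in *Meg3*-low nuclei of that library and 583 CPM in *Meg3*-high nuclei of the other. None of the 26 barcodes was among the 6 shared ones. Passage of nuclei or RNA between the libraries was not tested.

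*Bcl6*, *Socs2* and *Retreg1* differed less between the *Meg3* classes labelled KO than between the libraries. *Bcl6* was at 583 CPM (561 to 605) in *Meg3*-high and 429 CPM (411 to 448) in *Meg3*-low nuclei. *Socs2* was at 355 and 408 CPM, and *Retreg1* at 2414 and 2834 CPM. These values pool fibre classes. The log2 ratio of *Socs2*, high over low, was 0.13 (-0.15 to 0.42) within *Myh4* nuclei. It was -0.14 (-0.28 to -0.0015) within *Myh1* and -0.06 (-0.29 to 0.16) within *Myh2* nuclei. For *Retreg1* the ratios were -0.25, -0.30 and -0.61 in the same order.

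Few other genes followed the *Meg3* classes in every fast fibre class. Of 4439 genes with at least 200 UMIs in these nuclei labelled KO, 11 were 2-fold or more higher in *Meg3*-high nuclei for each of *Myh4*, *Myh1* and *Myh2*, or 0.248%, and 7 were 2-fold or more lower, or 0.158%. Members were 6 of the 11, *Meg3* having set the classes, and nothing is read from that count. The others, all chosen after their values were seen, were *Sntb1*, a syntrophin of the dystrophin complex, *Hdac9*, a histone deacetylase, *Bcor*, a corepressor that binds BCL6, *Igfn1*, an immunoglobulin-like muscle protein, and *Atp9a*. Those lower were *Lama2*, a laminin chain of the fibre's basement membrane, *Pde3a*, a phosphodiesterase, *Slc7a11*, a cystine transporter, *Plin3*, a lipid droplet protein, *Bace2*, *Ccdc162* and *Gm4876*.

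Some of them rest on few UMIs, such as *Gm4876* with 1 and 3 in *Meg3*-high and *Meg3*-low *Myh4* nuclei. The best counted outside the members were *Hdac9* and *Lama2*. *Hdac9* had log2 ratios of 1.24, 1.30 and 1.81 for *Myh4*, *Myh1* and *Myh2*, and *Lama2* had -3.06, -1.67 and -2.45. In the 16 against 685 *Myh4* nuclei labelled WT, which had no part in choosing them, *Lama2* was at -2.19 (-3.81 to -0.96) on 5 and 984 UMIs. *Igfn1* was at 2.66 (1.60 to 3.59) on 11 and 75 UMIs. *Hdac9* was at -1.50 (-3.79 to 0.05) on 3 and 368 UMIs, in the other direction. Of the 12 genes that are not members, 10 went the same way there, 3 of them with 0 UMIs in the 16 nuclei, and *Bace2* had no UMI. *Gm4876* and *Pde3a* had only 2 and 5 UMIs in the 685 nuclei, so their 0 in the 16 carries little weight. The intervals of *Atp9a*, *Bcor*, *Slc7a11*, *Ccdc162* and *Plin3* included 0. The share of all genes going the same way was not computed, so nothing is read from the 10.

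Across the sums of 7 classes in each library, 14 points in all, 3 members came closest to *Meg3* in pattern. Spearman's rho with *Meg3* over log2(CPM + 1) was 0.92 for *Rian*, 0.91 for *B830012L14Rik* and 0.89 for *Mirg*. Among other genes with at least 200 UMIs, of 8592 genes in all, the 5 highest were *Stc2* at 0.85, *Ptprf* at 0.85, *Zbtb20* at 0.85, *Prdx6* at 0.82 and *Sspn* at 0.80. *Rtl1* at 0.71 and *Gm34081* at 0.14 lay below these 5. The points share libraries and free RNA, and the values are a description. The members were chosen by their difference between these same libraries, so nothing is read from their rank.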

How the data were processed

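The authors deposited raw UMI counts per gene and barcode from Cell Ranger 7.0.0 (mm10, per the submitters' processing notes), which also list Seurat 5.0.3. Whether intronic reads or strand were used is not given in the sources used here, and the methods name a 3′ kit where the labels name Multiome. Both can change nuclear counts of long noncoding RNAs. Depth was 11974138 and 12026013 UMIs.

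Nuclei were kept with 200 to 5000 genes and at most 5% mitochondrial UMIs. The highest Scrublet scores (Scanpy 1.11.5) were removed as doublets, 0.8% per 1000 barcodes. Seurat 5.3.0 (R 4.3.3) integrated the libraries by RPCA over 2000 variable genes and 30 components at resolution 0.5, leaving out 1332 genes, among them the members, the listed genes and those 2-fold apart between libraries. Clusters were named by a rule set after they were seen (myonuclear from 40000 CPM of 10 markers, otherwise by at least 3 detected markers with 1 among the 10 leading genes).

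UMIs were pooled per class and library and divided by all UMIs (CPM). Intervals were exact Poisson, Clopper-Pearson or conditional ones at 95%, and zero counts were read as up to 3 UMIs or nuclei. The code for ratios and their intervals was checked on simulated counts. The named genes were the members, their neighbours, the regulators, *Bcl6*, *Socs2*, *Retreg1* and the 5 genes most like *Meg3*. Members, lists and rules were chosen with earlier results of these data known. No test between genotypes was run.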

Additional observations from a re-analysis of the deposited data

How the results depend on the processing

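Of 134 recomputed values, 94 stayed within the 95% counting interval of the value reported and 40 left it. The order of the libraries turned for *Meg3* in tenocyte-like nuclei, with 3990 CPM labelled WT and 3733 CPM labelled KO when classes came from marker UMIs. The cause of these moves was not tested, apart from thinning, which removes UMIs by construction. The log2 ratio of *Meg3* in myonuclei was 5.53 with classes from marker UMIs, 5.62 as a mean over nuclei and 5.88 with TMM scaling (edgeR 4.0.16). Co-detection of *Meg3* and *Rian* in myonuclei labelled KO was 33.6% at 500 UMIs, 48.7% at 2000 UMIs and 53.5% without thinning. *Rian* per 100 *Meg3* UMIs in all myonuclei labelled KO was 26.4 pooled and 17.3 as a mean over nuclei with at least 10 UMIs of both. *Meg3* in *Myh4* nuclei labelled KO was 42798 CPM without doublet removal and 42761 CPM with classes from marker UMIs. With the main myosin gene at 80% of at least 5 UMIs, *Meg3* was 49530, 17614 and 6400 CPM for *Myh4*, *Myh1* and *Myh2*, and *Rian* per 100 *Meg3* UMIs in *Meg3*-high nuclei was 42.1 and 18.5 for *Myh4* and *Myh1*. FAP-like nuclei labelled KO held 4525 CPM of *Meg3* without doublet removal, 4117 CPM with classes from marker UMIs and 4674 CPM as a mean over nuclei, and endothelial-like nuclei held 1328 CPM without doublet removal and 661 CPM as a mean over nuclei. The *Meg3*-high share was 2.45% in the library labelled WT with classes from marker UMIs, and 49.4 and 44.5% in the library labelled KO with limits of 2500 and 10000 CPM. The share of all genes 2-fold or more higher was 16.5% with no filter on low counts and 3.10% from 200 UMIs. The limits that define *Meg3*-high nuclei and the recomputed values that rest on them were chosen after seeing the data. No paired analysis was possible because each genotype had 1 library. With 2 mice in each library and no mark of the animal, the spread between mice is unknown.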
